A study of Arabidopsis thaliana with 24 samples.

Results

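The comparison set the response of etiolated Arabidopsis seedlings to 1 h of red light in a phyAphyB double mutant against the same response in wild type. It was measured as a difference of responses, (red minus dark in phyAphyB) minus (red minus dark in wild type), on the log2 scale of the array signal. A negative value means that red light raised the signal less, or lowered it more, in the double mutant. The 12 arrays of 4 groups entered this difference, out of 24 arrays in the study. The groups were wild type in darkness, wild type after red light, phyAphyB in darkness and phyAphyB after red light, with 3 arrays in each. All seedlings were 4 days old and were harvested whole, with root, hypocotyl and cotyledons. The light-treated groups received 1 h of light of 680 nm, at a fluence rate of 8 µmol per square metre and second. The labels call the arrays biological replicates. The mutant alleles and the accession of the wild type are not stated by the labels, and no other lesion is named for any group. The remaining 12 arrays were of phyA and phyB single mutants under the same conditions.

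Phytochromes are photoreceptors that red light converts to an active form, which far-red light reverses. The active form moves into the nucleus, where it acts against a group of bHLH transcription factors that hold seedlings in the dark-grown habit and against the degradation of factors that promote de-etiolation. Phytochrome A is abundant in dark-grown seedlings and is lost quickly in light, phytochrome B is the main light-stable form, and Arabidopsis has further phytochromes that a phyAphyB double mutant would still carry.

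Of 22746 probe sets that were not array controls, 15085 were tested, namely those that exceeded the 40th percentile of an array on 3 or more arrays. Of these, 8185 probe sets were paired with 1 gene, 304 with several genes and 6596 with none. On the 12 arrays the median signal lay between 169.8 and 193.2, the 40th percentile between 101.2 and 122.9, and arrays of 1 group correlated at 0.95 to 0.96. The array's 25S ribosomal RNA control ranged from 115.8 to 416.6. The probe sets of the mutated phytochrome genes were not among those with a name, so the genotype labels were not checked through them. Signals from whole seedlings do not tell fewer cells of a type from less RNA per cell. The number of arrays limits the precision of every value here.

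The difference of responses passed an adjusted p of 0.05 for 282 of the 15085 probe sets, which is 1.87%. It was negative for 229 of them (1.52%) and positive for 53 (0.351%). A difference of at least 2-fold was reached by 173 probe sets (1.15%). The unadjusted p was under 0.05 for 1428 probe sets. Among the 229 negative calls the difference ran from -4.49 to -0.48 with a median of -1.17, against a median of -0.01 over all tested probe sets. Among the 53 positive calls it ran from 0.50 to 1.97 with a median of 0.88. Leaving out 1 of the 12 arrays gave 206 to 276 calls. Without replicate 3 of dark wild type the positive calls were 31.

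The wild type response itself was called for 973 probe sets (6.45%), of which 612 rose (4.06%) and 361 fell (2.39%). The response of phyAphyB was called for 46 (0.305%), of which 4 rose (0.0265%) and 42 fell (0.278%). These 2 responses share no array. Of the 42 falls in phyAphyB, 36 were also among the 361 wild type falls, and of its 4 rises, 2 were among the 612 wild type rises. The count for phyAphyB depended on single arrays. It was 24 without dark replicate 1 of phyAphyB, 30 without its dark replicate 3, and 25, 26 and 27 without its red replicates 1, 2 and 3.

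Since the difference of responses contains the wild type response, the following counts describe the calls and do not test them. Of the 229 negative differences, 224 belonged to probe sets that rose in wild type and 5 to probe sets whose wild type response was not called. In phyAphyB the response of these 229 was not called for 225, and it was called as a rise for 2 and as a fall for 2. Of the 53 positive differences, 51 belonged to probe sets that fell in wild type. The 224 are called reduced rises and the 51 reduced falls below, and 2 of the 224 and 5 of the 51 still had a called response in the same direction in phyAphyB. In phyAphyB 47 of the 53 were not called, 5 fell and 1 rose. Counted by array, all 3 red arrays of phyAphyB lay above all 3 of its dark arrays for 39 of the 224 rises, against 4.75% of all tested probe sets. They lay below for 13 of the 51 falls, against 6.0% of all tested. The plot of the wild type response against that of phyAphyB shows these values. The phyAphyB response ran from -2.47 to 2.21 among the negative calls, with a median of 0.05, and from -1.06 to 1.58 among the positive calls, with a median of 0.01. No difference was called for 388 of the 612 wild type rises and 310 of the 361 falls. Their median differences were -0.54 and 0.48. Called or not, the difference ran against the wild type direction for all 612 rises and for 350 of the 361 falls.

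**Figure D1:**
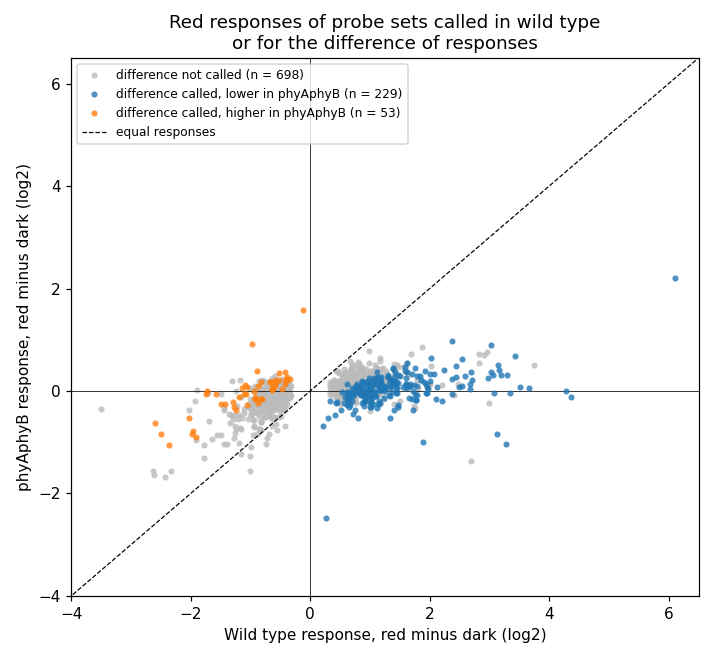
Each point is a probe set called for the wild type response or for the difference of responses. The x axis is the red response in wild type and the y axis the red response in phyAphyB, both as log2 of red over dark. Blue points (229) have a called negative difference, orange points (53) a called positive one, and grey points (698) no called difference. The dashed line marks equal responses.

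Of 3 tested genes on the flavonoid list, 2 rose in wild type, and neither response passed the test in phyAphyB. UGT78D2 encodes a glucosyltransferase of flavonoids, pigments that accumulate as seedlings green. Its signal was 115.7, 129.8 and 114.9 in dark wild type and 489.8, 449.5 and 449.9 after red light. In phyAphyB it was 110.6, 113.3 and 79.7 in darkness and 106.1, 75.8 and 114.2 after red light. The red wild type arrays were all above the other 9, and the phyAphyB groups overlapped. The difference of responses was -1.99 ± 0.26 (SE, log2; adjusted p = 2.175e-05).

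AT1G06000, a locus placed on the flavonoid list, had signals of 76.6, 88.7 and 90.8 in dark wild type and 663.2, 755.1 and 657.2 after red light. In phyAphyB it gave 16.9, 32.1 and 42.8 in darkness and 96.0, 48.0 and 32.3 after red light. All arrays but those of red wild type were under the 40th percentile, so these signals give no reliable order of the other 3 groups. Its difference of responses was -2.13 ± 0.46 (adjusted p = 0.01113). The flavonoid list held 18 genes, 5 of them with a named probe set. These 2 of the 3 tested passed, both negative. The third, the anthocyanin glycosyltransferase gene UF3GT, had a wild type response of 0.51 ± 0.62 (adjusted p = 0.7493) and a difference of -0.92 ± 0.88 (adjusted p = 0.8739). Of 30 tested genes matched by name to the UDP-glycosyltransferase family, UGT78D2 was the negative call. UGT76C2, which encodes a cytokinin glucosyltransferase, was the positive one. AT1G06000 has no symbol and was not among these 30, so they do not cover every glycosyltransferase gene tested.

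Both tested members of the flowering regulator list, SNZ and SMZ, rose in wild type and had a called negative difference. They encode related AP2-type repressors of flowering. The SNZ signal was 79.9, 19.0 and 66.8 in dark wild type and 494.9, 347.4 and 395.5 after red light. In phyAphyB it was 55.5, 49.8 and 60.7 in darkness and 8.9, 68.3 and 48.5 after red light. Only the red wild type arrays lay above the 40th percentile. The SNZ difference of -3.97 ± 0.76 (adjusted p = 0.003105) therefore rests on low signals in the other 3 groups.

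SMZ was measured at higher signals, 533.5, 479.8 and 426.3 in dark wild type and 1640.5, 1372.0 and 1305.0 after red light. In phyAphyB it gave 345.5, 339.1 and 418.7 in darkness and 476.0, 498.5 and 457.9 after red light. All red arrays of phyAphyB lay above its dark arrays, by a log2 response of 0.38 ± 0.16 that did not pass (adjusted p = 0.8925), while the wild type response was 1.58 ± 0.16 (adjusted p = 1.022e-07). The difference was -1.20 ± 0.22 (adjusted p = 0.002119). In the single mutants the SMZ response was 1.72 in phyB (adjusted p = 2.698e-08) and 0.10 in phyA (adjusted p = 0.8062), whereas that of SNZ was 2.43 in phyB (adjusted p = 0.004594) and 2.33 in phyA (adjusted p = 0.01044). The difference between the single mutants was not tested.

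AT3G21670 (NPF6.4), of the nitrate and peptide transporter family, had signals of 337.8, 218.3 and 329.6 in dark wild type and 1043.3, 1542.6 and 1465.8 after red light. In phyAphyB it gave 313.3, 224.5 and 262.9 in darkness and 180.5, 242.1 and 282.0 after red light. The phyAphyB arrays of both conditions lay within or below the range of dark wild type. The difference was -2.40 ± 0.27 (adjusted p = 2.885e-06). Its response was 2.23 in phyB (adjusted p = 8.945e-09) and 0.50 in phyA (adjusted p = 0.1565). It was the only tested member of the nitrogen list, which holds 8 genes.

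MSRB6 encodes a methionine sulfoxide reductase, an enzyme that repairs oxidised methionine. Its signal was 100.8, 50.7 and 77.4 in dark wild type and 322.9, 350.3 and 282.9 after red light, and in phyAphyB 123.7, 68.4 and 73.2 in darkness and 68.7, 73.2 and 89.0 after red light. These arrays were under the 40th percentile, apart from those of red wild type and 1 of dark phyAphyB at 123.7, which limits the fold. The difference was -2.27 ± 0.37 (adjusted p = 0.000534), with a response of 2.16 in phyB (adjusted p = 2.999e-06) and 0.10 in phyA (adjusted p = 0.8857). The glutaredoxin and methionine sulfoxide reductase family was matched by name, so members given only by locus number were not counted. The other 8 tested genes with such a name did not pass. Among them MSRB9 had signals of 613.9 to 752.2 in dark wild type and 2493.6 to 2915.5 in dark phyAphyB. Its level in the mutant was thus higher by 1.98 ± 0.18 in darkness (adjusted p = 1.833e-08) and by 1.60 ± 0.18 in red light (adjusted p = 2.672e-07), and its difference of responses was -0.38 ± 0.25 (adjusted p = 0.7285).

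Several negative differences belonged to loci that the reference names only by locus number. AT3G02910 had signals of 275.3, 275.1 and 206.7 in dark wild type and 2579.0, 1900.7 and 2415.8 after red light. In phyAphyB it gave 198.7, 231.7 and 281.9 in darkness and 417.7, 243.8 and 242.9 after red light. A 9.11-fold rise in wild type stood against a 1.24-fold ratio in phyAphyB that did not pass (adjusted p = 0.9996). The difference was -2.88 ± 0.32 (adjusted p = 2.403e-06).

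AT1G64500 rose from 115.5, 95.4 and 79.8 to 797.5, 732.3 and 722.1 in wild type. In phyAphyB it gave 68.9, 66.3 and 56.1 in darkness and 66.6, 77.8 and 83.4 after red light, below the 40th percentile throughout. The difference was -2.72 ± 0.28 (adjusted p = 1.121e-06). AT5G15950 was brighter, at 545.6, 496.0 and 572.3 in dark wild type and 2928.5, 2809.6 and 2016.3 after red light. Its phyAphyB arrays read 599.6, 519.1 and 591.6 in darkness and 751.7, 680.1 and 850.9 after red light. The red arrays of phyAphyB lay above its dark arrays, with a response of 0.41 ± 0.14 that did not pass (adjusted p = 0.6184). The difference was -1.83 ± 0.20 (adjusted p = 2.403e-06), so its wild type rise of 4.75-fold stood against 1.33-fold.

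AT1G32690 had a difference of -1.78 ± 0.17 (adjusted p = 4.887e-07). Its signal was 387.1, 377.0 and 353.7 in dark wild type and 1160.1, 1238.1 and 1112.3 after red light, against 434.2, 381.7 and 437.9 in darkness and 419.5, 362.9 and 361.1 after red light in phyAphyB. The 4 further loci AT3G56290, AT4G24700, AT2G46420 and AT5G35970 had differences of -1.96, -1.94, -1.88 and -1.73. Each rose in wild type on all 3 red arrays, and each had overlapping dark and red arrays in phyAphyB.

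The following genes lie outside the naming rule and were picked after their values were seen, because the reference names them. CYTC-2, which encodes a cytochrome c of the respiratory chain, read 318.1, 327.7 and 335.0 in dark wild type and 851.1, 906.2 and 936.6 after red light. In phyAphyB it read 381.6, 381.7 and 269.2 in darkness and 359.3, 318.5 and 312.5 after red light, and the difference was -1.50 ± 0.21 (adjusted p = 7.208e-05). GTR1, a glucosinolate transporter gene, had a difference of -1.25 ± 0.25 (adjusted p = 0.00514). UPB1, which encodes a bHLH factor that controls peroxidase genes in the root, had one of -1.11 ± 0.22 (adjusted p = 0.003641). Of the 110 called probe sets with 1 gene, 63 kept the call whichever of the 12 arrays was left out, and CYTC-2, GTR1 and UPB1 were among them.

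**Figure D2:**
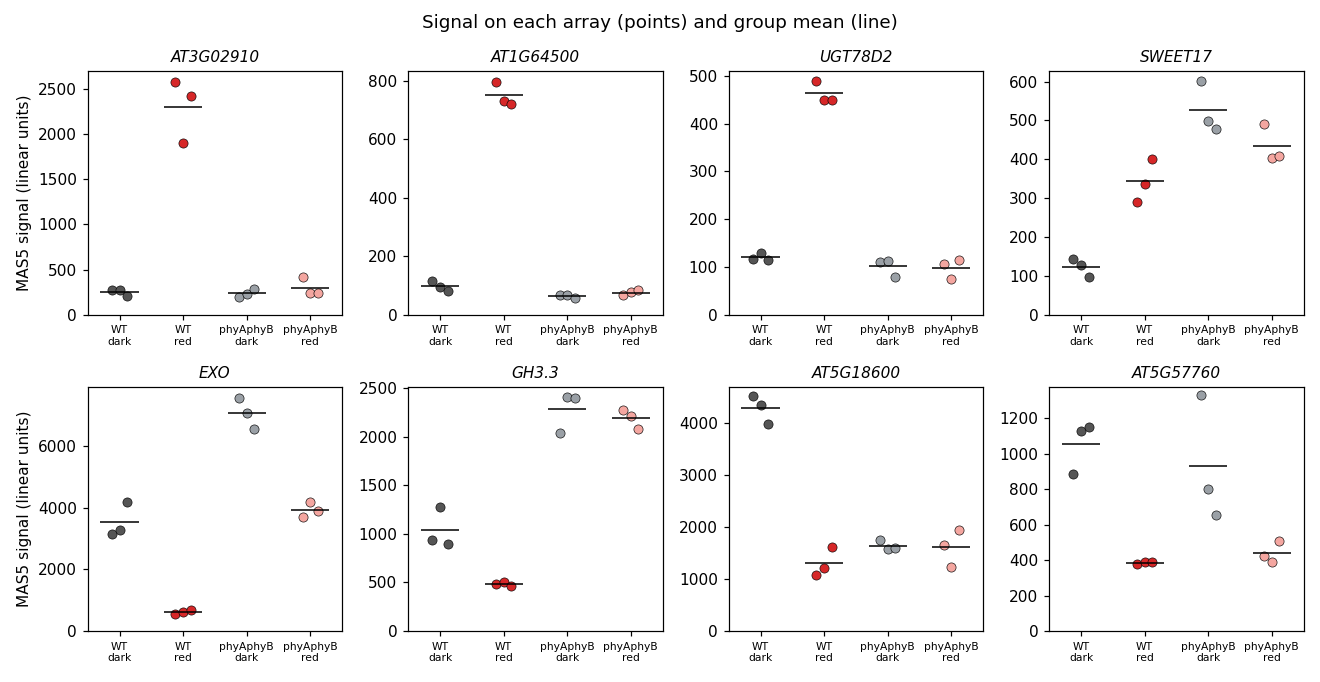
Signals on a linear scale for 8 genes, 1 panel each with its own axis from 0. Points are the 3 arrays of each group and the line is the group mean. In AT3G02910, AT1G64500 and UGT78D2 only red wild type is high, in SWEET17 dark wild type is low, and in EXO, GH3.3, AT5G18600 and AT5G57760 red wild type lies below dark wild type.

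A changed response can lie in the red level, in the dark level or in both, and the 4 groups were compared level by level to describe this. In darkness phyAphyB differed from wild type for 1694 probe sets (11.2%), with 5.73% of all tested higher and 5.5% lower, and in red light for 2612 (17.3%), with 8.37% higher and 8.94% lower. These 2 comparisons use the same arrays as the difference of responses. Of the 224 reduced rises, 176 were lower in phyAphyB in red light with no called difference in darkness. In 15 the mutant was higher in darkness and the red levels were not called as different, in 18 it was higher in darkness and lower in red light, in 14 it was lower in both, and in 1 neither level was called. Of the 51 reduced falls, 30 were higher in red light only, 11 were lower in darkness only, 2 were lower in darkness and higher in red light, 6 were higher in both, and 2 were called at neither level.

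SWEET17, which encodes a fructose transporter of the vacuolar membrane, is the named rise whose difference lay at the dark level. Its signal was 144.2, 129.1 and 98.2 in dark wild type and 291.3, 336.8 and 401.2 after red light, but 602.7, 497.4 and 478.7 in dark phyAphyB and 490.3, 402.9 and 408.8 in red phyAphyB. All 6 phyAphyB arrays were above all 6 wild type arrays. The dark level was 4.28-fold higher in the mutant (SE 0.18 on the log2 scale, adjusted p = 9.257e-09). The red level was higher by 0.35 ± 0.18 (log2), which did not pass (adjusted p = 0.2099). The difference of responses was -1.75 ± 0.25 (adjusted p = 0.0001062). In the single mutants the dark mean of SWEET17 was 373.3 in phyB and 175.6 in phyA, against 123.8 in wild type.

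AT4G21870 lay between the wild type levels in both conditions of the mutant. Wild type read 192.2, 200.1 and 202.4 in darkness and 659.0, 624.2 and 611.3 after red light, and phyAphyB read 398.8, 402.8 and 348.8 in darkness and 366.9, 407.4 and 450.2 after red light. The mutant was higher by 0.95 in darkness (adjusted p = 0.0001693) and lower by a log2 difference of -0.63 in red light (adjusted p = 0.005861).

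**Figure D3:**
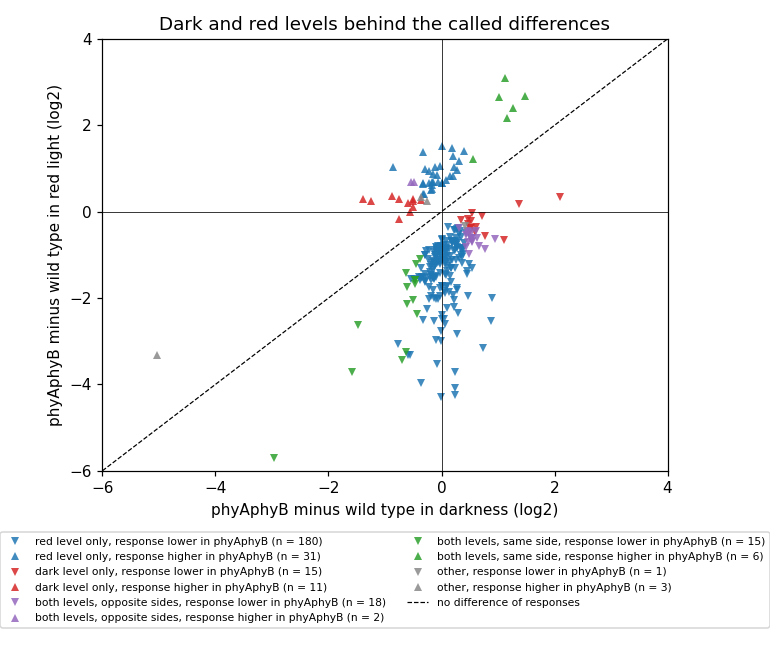
Each point is 1 of the 282 probe sets called for the difference of responses. The x axis is the phyAphyB minus wild type difference in darkness and the y axis the same difference in red light, both log2. Colours mark which of the 2 levels was called, and triangles point down where the response was lower in phyAphyB and up where it was higher. Blue points (red level only) lie near 0 on the x axis, and red points (dark level only) lie near 0 on the y axis.

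The brassinosteroid and ethylene list had 2 tested members of 9, and EXO was the 1 that passed. EXO encodes a cell wall protein that brassinosteroids induce and that promotes cell expansion. Its signal was 3138.1, 3266.3 and 4195.0 in dark wild type and 565.3, 618.3 and 681.9 after red light. In phyAphyB it was 7567.2, 7072.4 and 6544.4 in darkness and 3710.7, 4184.8 and 3880.6 after red light. Red and dark arrays were separate in both genotypes, so the fall was smaller and not absent: 5.65-fold in wild type and 1.80-fold in phyAphyB. The difference was 1.65 ± 0.21 (adjusted p = 1.653e-05). The fall in phyAphyB was called (-0.85 ± 0.15, adjusted p = 0.005836), but not without dark replicate 1 of phyAphyB (adjusted p = 0.05362). The mutant level was higher by 1.01 in darkness and by 2.66 in red light. The response was -2.54 in phyA and -2.26 in phyB, both called.

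GH3.3 encodes an enzyme that conjugates auxin to amino acids and is itself induced by auxin. It read 940.3, 1274.9 and 890.2 in dark wild type and 482.5, 509.5 and 460.6 after red light, and 2038.1, 2412.1 and 2399.0 in dark phyAphyB and 2278.0, 2209.0 and 2079.8 in red phyAphyB. The phyAphyB arrays were all above the wild type arrays and did not separate by light. The difference was 1.02 ± 0.21 (adjusted p = 0.006146), with the mutant level higher by 1.16 in darkness (adjusted p = 4.825e-06) and by 2.18 in red light (adjusted p = 7.804e-11).

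Of 19 genes on the auxin list 5 were tested, and GH3.3 was the 1 that passed. The median difference of the 5 was 0.72. WAG2, a protein kinase gene of auxin transport, had a difference of 0.72 ± 0.23 (adjusted p = 0.139), with a wild type fall of -0.77 (adjusted p = 0.002428) and a phyAphyB response of -0.05 (adjusted p = 0.9996). WES1, a relative of GH3.3, and the auxin synthesis gene YUC2 had differences of 0.15 and 0.06. The fifth, IAA29, is given with the falls that phyAphyB kept.

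HAT2, an HD-ZIP gene that responds to auxin and shade, read 1900.8, 2450.7 and 2388.8 in dark wild type and 1375.6, 1009.3 and 1170.9 after red light. In phyAphyB it read 2413.0, 2615.2 and 2798.3 in darkness and 2672.0, 2267.1 and 2256.1 after red light. Its difference was 0.80 ± 0.20 (adjusted p = 0.03232), a call lost on leaving out 7 of the 12 arrays in turn, with adjusted p up to 0.1229. UGT76C2 had a difference of 0.85 ± 0.22 (adjusted p = 0.04006), lost on leaving out 10 of the 12, with adjusted p up to 0.1347.

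Among loci with no symbol, AT4G10910 read 1463.8, 1785.3 and 1795.0 in dark wild type and 441.2, 524.5 and 565.0 after red light, against 1290.9, 1420.0 and 1307.1 in darkness and 1221.1, 1371.2 and 1406.2 after red light in phyAphyB. Its difference was 1.71 ± 0.20 (adjusted p = 7.198e-06). It fell by 1.11 in phyB (adjusted p = 8.258e-06), and its phyA response was 0.05 (adjusted p = 0.8931). AT5G18600 read 4523.7, 4354.8 and 3992.9 in dark wild type and 1075.9, 1219.9 and 1619.3 after red light. In phyAphyB it was already low in darkness, at 1749.6, 1575.1 and 1604.9, and read 1651.8, 1238.9 and 1941.7 after red light. The dark level differed by -1.38 ± 0.20 (adjusted p = 2.921e-05) and the red level by 0.30 ± 0.20 (adjusted p = 0.3589). The dark mean of AT5G18600 was 2093 in phyA and 3352 in phyB, against 4290 in wild type. AT2G28400 had the same order of groups, with a dark level difference of -0.88 (adjusted p = 0.000406) and a difference of responses of 1.23 ± 0.22 (adjusted p = 0.001756).

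AT5G38710 was high in all phyAphyB arrays, at 369.5, 412.3 and 434.4 in darkness and 476.3, 399.9 and 387.8 after red light, against 154.3, 143.6 and 137.9 and then 57.3, 83.2 and 58.8 in wild type. Its difference of 1.20 ± 0.29 (adjusted p = 0.02407) lost the call on leaving out 7 of the 12 arrays in turn, with adjusted p up to 0.08461. AT5G11070 had a difference of 1.28 ± 0.29 (adjusted p = 0.0171), lost without red replicate 3 of phyAphyB, dark replicate 2 of wild type or red replicate 1 of wild type, with adjusted p up to 0.06099. AT5G44680 had a difference of 1.00 ± 0.21 (adjusted p = 0.007251) with 332.9, 274.0 and 300.2 in red wild type and 772.4, 925.6 and 705.0 in red phyAphyB.

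BIM1 is a called difference whose wild type response was not called. It encodes a bHLH partner of brassinosteroid-response factors. Its signal was 1190.3, 793.3 and 790.0 in dark wild type and 1165.7, 1191.4 and 1006.0 after red light, against 872.2, 851.1 and 820.0 and then 535.9, 666.6 and 579.6 in phyAphyB. The red arrays of the mutant lay below all others. The responses were 0.30 in wild type (adjusted p = 0.2291) and -0.52 in phyAphyB (adjusted p = 0.1766), the difference was -0.82 ± 0.19 (adjusted p = 0.01839), and the call was lost without any 1 of red replicate 1 of phyAphyB, dark replicates 2 and 3 and red replicates 1 and 2 of wild type, with adjusted p up to 0.076. In the single mutants BIM1 fell by 0.62 in phyA (adjusted p = 0.006265) and rose by 0.52 in phyB (adjusted p = 0.01814). AT3G45740, the other such named gene, had a difference of -0.89 ± 0.23 (adjusted p = 0.04041), lost on leaving out 8 of the 12, with adjusted p up to 0.133.

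The single mutant arrays did not enter the means behind the difference of responses, but they shared its filter and its estimate of the spread, so the 224 and 51 probe sets were not chosen wholly apart from them. In a fit of the 4 compared groups alone, 238 of the 282 calls were shared. Of the 224 reduced rises, 204 (91.1%) rose in phyB, against 540 of all tested probe sets (3.58%), and 131 (58.5%) rose in phyA, against 364 of all tested probe sets (2.41%). Both mutants had the rise for 126, phyB and not phyA for 78, phyA and not phyB for 5, and neither for 15. The median response of the 224 was 1.20 in wild type, 1.06 in phyB, 0.60 in phyA and 0.06 in phyAphyB. Of the 51 reduced falls, 35 (68.6%) fell in phyB, against 327 of all tested (2.17%), and 22 (43.1%) in phyA, against 291 of all tested (1.93%). Their median response was -0.91 in wild type, -0.68 in phyB, -0.34 in phyA and -0.01 in phyAphyB. The wild type and phyAphyB medians are part of how these probe sets were called. All 224 and 51 were also chosen as responding in wild type. The shares of all tested probe sets are therefore no fitting reference for their single mutant counts. Shares among all wild type rises and falls are not given here. A call in one single mutant and not in the other was not tested as a difference between them.

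**Figure D4:**
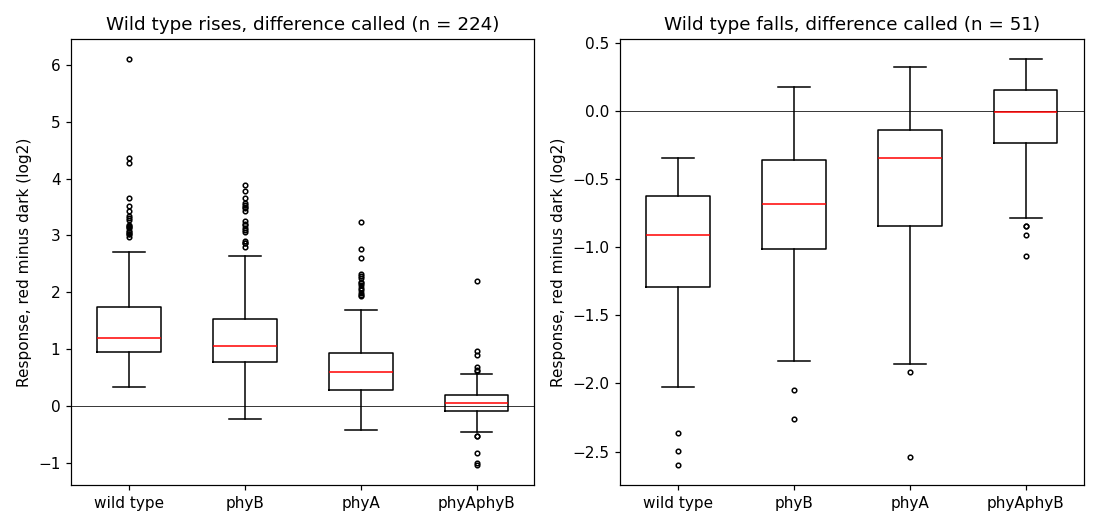
Red responses (log2 of red over dark) in the 4 genotypes for the 224 probe sets with a reduced rise (left) and the 51 with a reduced fall (right). Boxes span the quartiles with the median as a red line, whiskers reach to the last value within 1.5 box lengths, and circles are values beyond. The phyB boxes lie nearer to wild type than the phyA boxes, and the phyAphyB boxes lie around 0.

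Of the responses called in both genotypes, 36 were falls and 2 were rises. Of the 36 falls, 11 had 1 gene, and 5 of the 36 had a called difference. Their median response was -1.17 in wild type and -0.85 in phyAphyB. IAA29, an auxin-response repressor gene picked here after its values were seen, read 772.3, 745.8 and 751.2 in dark wild type and 112.0, 109.4 and 152.5 after red light. In phyAphyB it read 893.4, 863.0 and 986.9 in darkness and 273.2, 308.2 and 295.7 after red light. The fall of -1.64 ± 0.20 in phyAphyB (adjusted p = 0.000228) held whichever array was left out. Its difference of responses, 0.97 ± 0.29 with a 95% interval from 0.38 to 1.57, did not pass (adjusted p = 0.09878), but passed in a fit of the 4 compared groups alone (adjusted p = 0.01003). Leaving out each array in turn gave an adjusted p of 0.05668 to 0.2521 for it.

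Wild type falls of at least 2-fold were ranked where the probe set had 1 gene and a highest group mean above 398.8. Among these, AT5G01790, AT5G57760 and P1R3 had the smallest absolute differences. AT5G57760 read 883.5, 1125.1 and 1152.6 in dark wild type and 375.6, 389.4 and 390.2 after red light, and in phyAphyB 1327.8, 803.3 and 656.6 in darkness and 420.8, 387.0 and 505.5 after red light. Its difference was 0.41 with a 95% interval from -0.20 to 1.02. The fall of -1.03 in phyAphyB (adjusted p = 0.02184) was lost without dark replicate 1 or 2 or red replicate 1 or 2 of phyAphyB, with adjusted p up to 0.3093. P1R3 had a difference of 0.44 with an interval from -0.07 to 0.94, and its phyAphyB fall of -0.82 (adjusted p = 0.03348) was lost without dark replicate 1 or 3 or red replicate 1 or 2 of phyAphyB, with adjusted p up to 0.3182. AT5G01790 had a difference of 0.37 with an interval from -0.24 to 0.97, and its phyAphyB response of -0.91 did not pass (adjusted p = 0.0652).

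Wild type rises of at least 2-fold were ranked under the same limits. The smallest absolute differences were those of AT2G35260 (-0.65, interval -1.17 to -0.13), AT1G70420 (-0.66, interval -1.16 to -0.16) and AT4G11570 (-0.68, interval -1.13 to -0.23). None of them passed after adjustment, and none had a called response in phyAphyB. A difference that did not pass is thus not evidence of an equal response.

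**Figure D5:**
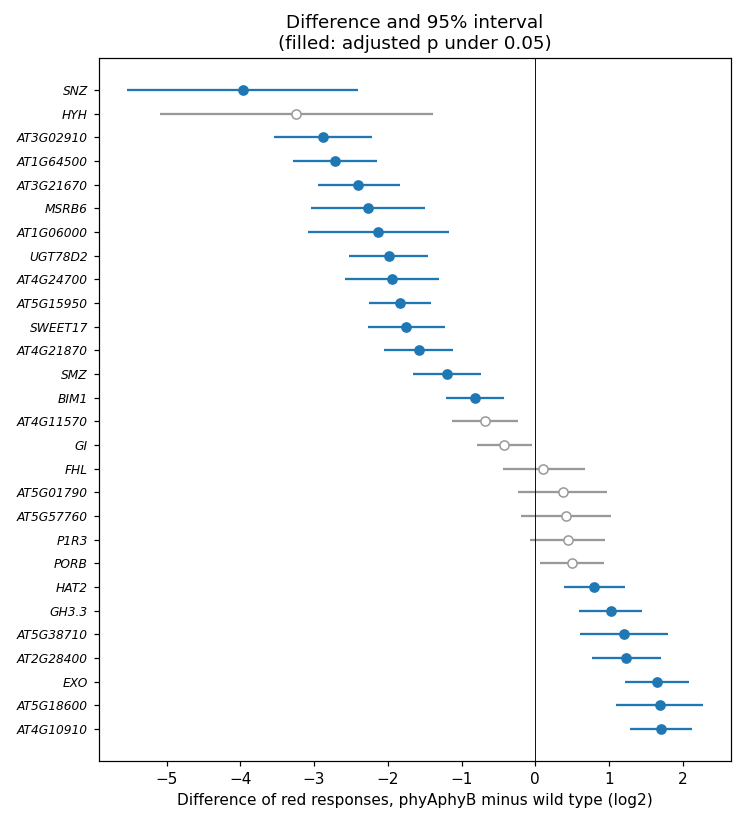
Difference of red responses, phyAphyB minus wild type, for 28 named genes (log2, x axis). Points are estimates and bars 95% intervals, not adjusted for the number of probe sets. Filled blue points passed an adjusted p of 0.05 and open grey points did not, among them HYH with the widest grey bar.

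The light signalling list had 3 tested members of 39, and HAT2 was the 1 that passed. HYH encodes a bZIP factor related to HY5 that promotes de-etiolation. Its signal was 21.8, 6.8 and 28.7 in dark wild type and 235.8, 201.5 and 216.9 after red light, and 11.1, 32.8 and 30.2 in dark phyAphyB and 30.7, 41.9 and 24.6 in red phyAphyB. The red wild type arrays stood apart from the other 9, all of which were under the 40th percentile. The wild type rise was called (3.75 ± 0.63, adjusted p = 0.000235), while the difference of -3.24 ± 0.90 did not pass (adjusted p = 0.06806). It passed with a pseudocount of 10.7 signal units (-2.69, adjusted p = 0.0116) and without dark replicate 1 of phyAphyB (-3.74, adjusted p = 0.03054). Leaving out each of the 12 arrays in turn gave an adjusted p of 0.03054 to 0.2043.

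FHL, whose product carries phytochrome A into the nucleus, read 502.7, 433.8 and 585.0 in dark wild type and 241.7, 290.0 and 302.5 after red light, and 651.6, 463.1 and 440.6 and then 217.4, 323.2 and 399.1 in phyAphyB. Red lay below dark on all arrays of both genotypes, as it did in phyAphyB for 6.0% of all tested probe sets. The wild type fall was called (-0.86, adjusted p = 0.004316), while the phyAphyB response of -0.75 did not pass (adjusted p = 0.1644). The difference of responses for FHL was 0.11 with an interval from -0.44 to 0.67 (adjusted p = 0.9642). GI, the 1 tested member of the clock list, gave responses of 0.87 in wild type (adjusted p = 2.992e-05) and 0.45 in phyAphyB (adjusted p = 0.2932), with a difference of -0.42 ± 0.18 (adjusted p = 0.3929).

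The chlorophyll synthesis list held 21 genes, of which 5 were tested. None of them passed, against 1.87% of all tested probe sets, and a count of 0 in so few genes cannot be told apart from that share. Their differences ran from -0.24 to 0.50. PORB, which encodes the light-dependent protochlorophyllide oxidoreductase, fell in wild type by 0.72 (adjusted p = 0.001769), and its difference was 0.50 ± 0.21 (adjusted p = 0.3725). None of 9 tested genes of the photosystem and antenna family passed, a family that also took in the Rubisco activase gene RCA. Their differences ran from -0.29, that of RCA, to 0.56. Within them the antenna gene LHCB4.1 was lower in phyAphyB by a log2 difference of -0.88 in darkness (adjusted p = 4.028e-06) and of -0.45 in red light (adjusted p = 0.005526). PSB27, of photosystem II assembly, was lower by -0.98 (adjusted p = 8.416e-06) and -1.02 (adjusted p = 2.706e-06). Dark means in phyA and phyB were 10300 and 9798 for LHCB4.1, against 13920 in wild type. For PSB27 they were 4210 and 4413, against 6483. None of 19 tested wall-loosening genes passed, with differences from -1.38 to 0.85. These extremes, XTH32 (adjusted p = 0.07253) and EXPB1 (adjusted p = 0.09063), came nearest to passing. No call fell among 10 genes with a CYP symbol, not all of them cytochrome P450 genes, or among 5 WRKY genes. WRKY22 came nearest among the latter, at 0.87 ± 0.24 (adjusted p = 0.05756). The 4 tested genes with a numbered bHLH symbol and 6 LEA and dehydrin genes did not pass either. For each of these families too, a count of 0 cannot be told apart from the 1.87% of all tested probe sets. BIM1 and UPB1, bHLH genes with called differences described above, were outside that bHLH group.

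In all, the 14 lists held 193 genes, of which 31 could be matched to a named probe set. Tests were run for 28, and 3 passed as positive and 5 as negative, against 0.351% and 1.52% of all tested probe sets. The genes of these lists were chosen with earlier results known, and their number is small. The gibberellin and shoot epidermis lists had no named probe set. The markers of other cell types and of seed reserves that could be read moved as follows. The root hair gene EXPA18 had a difference of 0.24 ± 0.46 (adjusted p = 0.9548). ICL, a glyoxylate cycle gene used while seed oil is consumed, read 17191.7 to 19644.3 in dark wild type and 8497.4 to 10651.1 in dark phyAphyB. It was lower in the mutant by a log2 difference of -0.92 in darkness (adjusted p = 1.003e-06) and of -0.58 in red light (adjusted p = 0.0002852), with a difference of responses of 0.35 ± 0.15 (adjusted p = 0.4145). The part of these level differences in the results above was not tested. The 3 tested reference genes had differences from -0.21 to 0.12, and none passed.

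Of the 282 called probe sets, 170 had no gene name, 141 of them negative and 29 positive. Their most negative difference was -4.49 ± 0.29 (adjusted p = 7.375e-10), with a response of 4.37 in wild type and -0.13 in phyAphyB. Their most positive was 1.51 ± 0.27 (adjusted p = 0.001397), with responses of -1.58 and -0.07. The dark wild type mean was under the 40th percentile of the arrays for 16 of the 229 negative calls.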

How the data were processed

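RNA of whole seedlings was hybridised to Affymetrix arrays. The authors deposited MAS5 signal intensities, linear and scaled, per the submitters' processing notes and the values: a trimmed mean of 500.0 on every array. No depth or detection call was used. From the deposited intensities, log2 was taken without a pseudocount, after leaving out 64 control probe sets. Probe sets above their array's 40th percentile on at least 3 arrays were fitted in limma 3.58.1 (R 4.3.3) with a mean for each of 8 groups over all 24 arrays, contrasts and moderated two-sided tests with an intensity trend. P-values were adjusted by Benjamini-Hochberg over 15085 probe sets, and called means adjusted p under 0.05. The fit was tested on simulated data. P-values rest on the spread between arrays of the same group, pooled over the 8 groups and moderated across probe sets.

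Genes came from the platform annotation, updated to TAIR10.1 symbols. Of 22746 probe sets, 13513 had 1 gene, 503 several and 8730 none, and 70 gene IDs found no match. Where probe sets shared a gene, the brightest was named.

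The genes and lists were chosen with earlier results of these data known. Named genes are, among called probe sets with 1 gene and a highest group mean above 398.8 (the median tested signal), the 14 most negative and 8 most positive differences and up to 4 of each sign whose wild type response was not called. Added to these are the 3 rises and 3 falls of at least 2-fold in wild type with the smallest absolute differences, under the same gene and signal limits. Up to 4 called, or otherwise 2 bright, members of each list or family were also added. Families were matched by patterns in the symbol, locus number or synonyms, so genes without a matching name were missed. The families erf_ap2, myb, b_box, heat_shock, ribosomal_protein and plastid_encoded matched no named gene, and nitrate transport had no tested member. These patterns missed the AP2-type genes SNZ and SMZ and the transporter gene AT3G21670, all of which were tested. Lists not described with the results were carotenoid (LYC, difference -0.07) and NAC (NAC014, 0.12), neither called, homeobox (HAT2 alone) and the auxin family (8 tested, GH3.3 called). EIN3, the other tested brassinosteroid and ethylene gene, had a difference of 0.05 and was not called. Promoter sequences and motifs were not analysed here.

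Same-numbered arrays of different groups did not consistently deviate together: 18 correlations ran from -0.40 to 0.26, with 4 over 0.1. Those of dark wild type with red phyAphyB were 0.23, 0.10 and 0.26. Differently numbered arrays were not compared, and the numbers were not used as pairs. Alternatives were quantile normalization, no filter, a 60th percentile filter, a pseudocount of 10.7, no trend, the 4 compared groups alone, a replicate block and leaving out each of the 12 arrays, with array weights and the omission of 2 phyA arrays added after seeing the data.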

Additional observations from a re-analysis of the deposited data

Results flagged for a closer look

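In 3 probe sets the phyAphyB response passed the test while the wild type response did not. AT3G63340 had a difference of -2.74 ± 0.58 (adjusted p = 0.009033), with signals of 30.2, 33.8 and 21.8 in dark phyAphyB and 9.1, 1.5 and 9.5 after red light, against 195.4 to 298.0 on the wild type arrays. AT4G01910 had a difference of 1.70 ± 0.32 (adjusted p = 0.00287), with 10.4, 8.1 and 11.7 in dark phyAphyB and 30.5, 22.5 and 38.2 after red light, against 259.1 to 409.7 in wild type. Its dark means in the single mutants were 299.3 and 300.6. In both genes all phyAphyB signals were under the 40th percentile of their arrays, and the probe sets were tested because of the groups where they are high, so these signals do not establish a response to red light. A probe set with no gene name had a difference of -0.90.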

How the results depend on the processing

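No called difference of a named gene reversed its direction under the alternatives run. The 282 calls became 274 with quantile normalization (255 of them shared), 256 with no filter (248), 290 with the 60th percentile filter (266), 285 with the pseudocount (280), 247 without the trend (236) and 283 in the 4 groups alone (238). With the replicate block they were 264 (262 shared), and UGT76C2 lost its call (adjusted p = 0.06012). Array weights, added after seeing the data, moved the counts most: 578 differences (280 shared), 402 negative and 176 positive, with 1758 wild type responses, 107 in phyAphyB and 2827 dark level differences. Leaving out dark replicates 2 and 3 of phyA, also added after seeing the data, gave 314. Leaving out 1 of the 12 arrays gave 206 to 276 differences, 31 to 55 positive and 175 to 221 negative, 713 to 1044 wild type responses, 24 to 48 in phyAphyB, 1179 to 1735 dark and 2061 to 2665 red level differences. The cause of these changes was not tested. With array weights HYH passed (-3.54, adjusted p = 0.006766). Of the called differences named by rule, AT3G45740, AT5G11070, AT5G38710, BIM1, HAT2 and UGT76C2 lost the call under at least 1 alternative. Signals under the 40th percentile, as in the low groups of SNZ and HYH, limit the folds of those genes.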

Other observations

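AT1G12790, AT3G57020 and AT4G16980 were picked after their values were seen, for level differences beside the changed response. AT1G12790 read 136.6, 139.3 and 140.9 in dark wild type and 50.8, 86.7 and 67.0 after red light, and 326.3 to 379.6 on all phyAphyB arrays. Its dark mean was 416.5 in phyA and 649.1 in phyB, so all 3 mutants had higher dark means than wild type, and its difference of responses was 1.14 ± 0.21 (adjusted p = 0.001951). AT4G16980 read 2361.5, 2194.6 and 2472.2 in dark wild type and 5726.0, 5032.1 and 4419.9 after red light. In phyAphyB it read 5637.2, 6178.1 and 6278.5 in darkness and 6255.4, 5273.0 and 5481.0 after red light, so dark phyAphyB lay near red wild type, and the difference was -1.20 ± 0.22 (adjusted p = 0.002161). AT3G57020 was lower in phyAphyB already in darkness (126.4 to 138.6 against 351.9 to 398.2) and rose in wild type to 1339.3, 873.0 and 928.3, with a difference of -1.16 ± 0.23 (adjusted p = 0.005145).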
